A study of Mus musculus with 35 samples.

Results

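The comparison concerned the loss of Nelfb in cells that carried no replacement for it. Immortalized mouse embryonic fibroblasts (MEFs) of the genotype Nelfb flox/-, with 1 floxed and 1 deleted allele, had been given an empty pLenti vector (EV) and were sequenced on day 7 after infection with an adenovirus. EV-Cre received Ad-Cre-GFP, which carries Cre recombinase and deletes the floxed allele, and EV-GFP received Ad-GFP. The EV-GFP controls therefore also carried 1 deleted allele, and both groups had been infected. Each group held 2 populations, so that 4 of the 35 libraries of the series were compared across all genes, and EV-Cre 1 was paired with EV-GFP 1 and EV-Cre 2 with EV-GFP 2. WT-Cre and WT-GFP, 2 populations each of the same MEFs with ectopic wild-type NELFB and the same viruses on the same day, were used to see where the response differed. The cells were grown in DMEM with 10% FBS, and a population is a mixture of cells in which deletion need not be complete.

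NELF is a complex of 4 subunits that, together with DSIF, holds RNA polymerase II in a paused state shortly after it has started on a gene. The kinase P-TEFb releases it, and genes that answer to growth factors, stress or infection are known for strong pausing. NELFB is needed for the stability of the whole complex.

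Reads counted on genes were 21011317 and 22894317 in EV-Cre 1 and 2 and 19516749 and 22083113 in EV-GFP 1 and 2. At least 1 read was found on 16265 and 16447 genes in EV-Cre and on 15720 and 15957 in EV-GFP, so more genes were detected with Ad-Cre in both pairs. Reads on no annotated gene made up 15.5% and 18.8% in EV-Cre and 13.9% and 17.7% in EV-GFP, and the part of this difference in the results was not tested. The labelled cell type was checked by markers. Of 13 fibroblast markers, 11 were above 1 CPM, the count scaled to library size with TMM factors, in each of the 4 libraries, led by Col1a1. The exceptions were Thy1, with 1 read in EV-Cre 1 and none in the other libraries, and Lum, with 0.721 CPM in EV-Cre 1. The summed level of the 13 markers was 11800 and 16300 CPM in EV-Cre and 15300 and 20400 in EV-GFP. All markers of endothelial and epithelial cells and of pluripotent stem cells stayed under 1 CPM in each of the 4 libraries, and Krt5, Krt8, Krt14 and Pou5f1 had no read in the 4 libraries. Of the 12 fibroblast markers tested, 1 was higher and 7 were lower with Ad-Cre, and the part of this in the other results was not tested. Of the macrophage markers, Cd68 led the summed level of 10.0 and 14.4 CPM in EV-Cre and 7.62 and 11.3 in EV-GFP, whereas Adgre1 and Tyrobp had no read. Of the 4 macrophage markers tested, 2 were higher and 1 was lower with Ad-Cre. Cd68 (log2 fold change 0.64, adjusted p = 0.0118) and Csf1r (0.60, adjusted p = 0.042) rose, and Mrc1 fell (−2.15, adjusted p = 0.00126). Fabp4 led the adipocyte markers, whose sum was 76.0 and 49.8 CPM in EV-Cre and 112 and 88.3 in EV-GFP, and it was lower with Ad-Cre (−0.75, adjusted p = 2.98e-05). Of 7 skeletal muscle markers, 6 stayed under 1 CPM in each of the 4 libraries, Myod1, Myog, Myf5 and Ckm had no read, and Ttn, the most abundant, had 0.586 and 1.93 CPM in EV-Cre and 0.197 and 0.780 in EV-GFP (log2 fold change 1.35, adjusted p = 0.0262). The adjusted p of Ttn was lost without the block and without EV-Cre 2, EV-GFP 1 or EV-GFP 2, and its part in the contractile genes was not tested. Nes led the neural markers, with a sum of 88.8 and 96.4 CPM in EV-Cre and 54.2 and 91.5 in EV-GFP.

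Nelfb lies on chromosome 2 from 25199712 to 25211489 of mm10, on the minus strand. It had 177 and 116 reads in EV-Cre 1 and 2 and 938 and 811 in EV-GFP 1 and 2, or 7.97 and 5.46 CPM against 46.1 and 39.5. The groups did not overlap, and Nelfb was 6.37-fold lower with Ad-Cre (log2 fold change −2.67, standard error 0.19, with an adjusted p of 8.14e-08 in the quasi-likelihood test of edgeR). Reads in EV-Cre can come from cells that kept the floxed allele or from parts of the gene outside the deletion, which the counts cannot tell apart. In bulk samples, fewer cells that express a gene and less RNA per cell cannot be told apart either.

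RNA of the other NELF subunits was not detectably changed. Nelfa had 37.7 and 30.4 CPM in EV-Cre and 40.5 and 34.1 in EV-GFP (log2 fold change −0.13, adjusted p = 0.252), Nelfcd 35.0 and 32.8 against 32.1 and 29.9 (0.13, adjusted p = 0.361), and Nelfe 28.9 and 23.9 against 35.9 and 26.7 (−0.24, adjusted p = 0.0681). Among 26 genes of NELF, DSIF, P-TEFb and elongation, 9 rose and 5 fell at an adjusted p under 0.05, with a median log2 fold change of 0.10. Of all 13805 genes tested, 21.2% were higher and 21.8% lower at this threshold, which is the background for every list described here. Of 7 genes of P-TEFb and its 7SK inhibitor, 3 rose and 3 fell, with a median of −0.05. The kinase Cdk9 had 86.0 and 76.5 CPM in EV-Cre and 58.6 and 47.9 in EV-GFP (0.61, adjusted p = 2.48e-05), and its cyclin Ccnt1 had 29.5 and 35.3 against 21.3 and 22.9 (0.55, adjusted p = 0.000452). Hexim1, which holds P-TEFb inactive in the 7SK particle, had 65.8 and 57.6 CPM against 83.0 and 72.8 (−0.34, adjusted p = 0.024), and it lost the adjusted p when any 1 of the 4 libraries was left out. Mllt1 of the super elongation complex rose by 0.44 and Supt6, a histone chaperone that travels with the polymerase, by 0.31 on the log2 scale. Without the replicate block, 2 of the 26 rose and 1 fell, and these counts were 5 and 5 without EV-Cre 1, 5 and 2 without EV-Cre 2 or EV-GFP 2, and 6 and 2 without EV-GFP 1.

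Across all genes, the response was broad and went in both directions. Genes that passed the adjusted p and also changed by more than 1 on the log2 scale are named called genes. There were 1344 of them among 13805 (9.74%), 714 of them higher (5.17%) and 630 lower (4.56%) with Ad-Cre. At the same thresholds the paper counts fewer genes in each direction for this comparison, and the cause of this difference was not tested. The adjusted p alone was passed by 5935 genes (43.0%), 2930 higher and 3005 lower, and the median log2 fold change of all genes was 0.0014. CPM values of 48.4% of all tested genes did not overlap between the groups, which is the background wherever groups are said here to stand apart. The median absolute log2 fold change of the called genes was 1.324 in the first pair and 1.504 in the second. A log2 fold change over 2 was reached by 182 genes that rose and 151 that fell, and one over 3 by 43 and 48. These counts rest in part on the replicate block, which takes out the difference between the 2 experiments. Without it, 900 genes were called (453 higher) and 1791 passed the adjusted p alone. The plot of the effect in both pairs shows each gene's change in the first and the second pair, from which the calls were made.

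**Figure D1:**
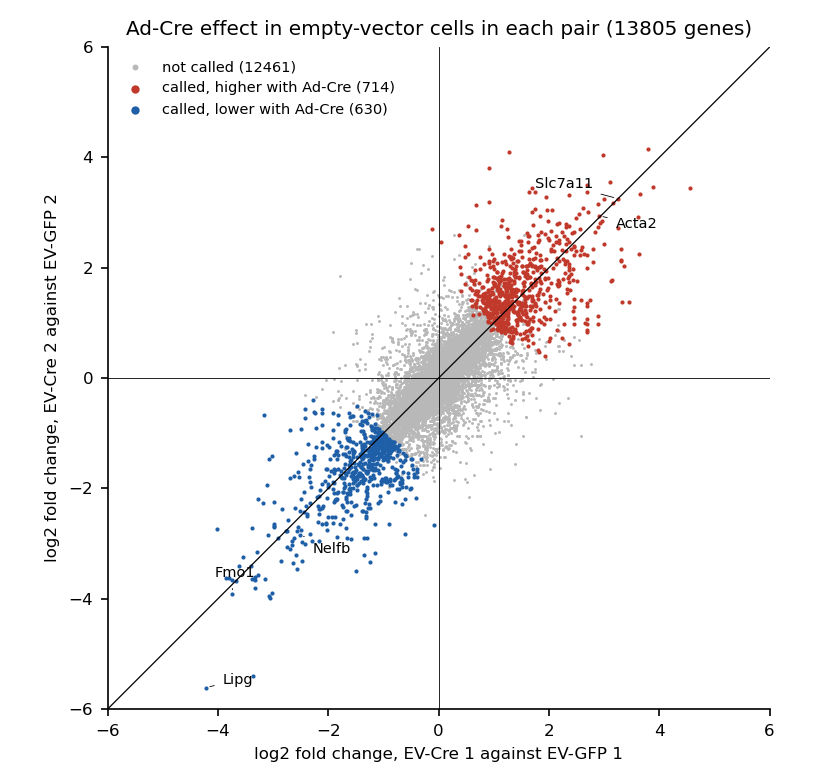
Each point is 1 of 13805 genes, with the log2 fold change of EV-Cre 1 against EV-GFP 1 on the x axis and of EV-Cre 2 against EV-GFP 2 on the y axis, and the line marks equal change. The 714 red genes were called higher and the 630 blue genes lower by the fit that used these same pairs, so their place in the plot is a description. Changes in single pairs are damped at low counts and can be smaller than the fitted ones.

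Among well-counted genes, the largest increases included several secreted and surface proteins. Hbegf, a ligand of the EGF receptor, had 158 and 236 CPM in EV-Cre and 21.2 and 26.5 in EV-GFP and was 8.14-fold higher (log2 fold change 3.03, standard error 0.28, adjusted p = 9.82e-06), and Il13ra2, a decoy receptor for interleukin 13, had 79.7 and 105 against 9.88 and 11.0 (3.14). Timp3, an inhibitor of matrix metalloproteinases, had 977 and 1920 CPM against 149 and 238 (2.87), and thrombomodulin (Thbd) had 765 and 1410 against 125 and 167 (2.87). All 4 genes had both EV-Cre libraries far above both EV-GFP libraries, with the higher value in EV-Cre 2. No overlap of the groups was a condition for naming them. Lims2, an adaptor at integrin adhesions, rose by 3.00, the 2',5'-oligoadenylate synthetase Oas2 by 2.88, the glutathione transferase Gsta4 by 2.74 and Arc, an immediate early gene of neurons, by 2.70 on the log2 scale. Slc7a11, Ctgf and Acta2, which were also among the largest increases, are described with their groups.

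The largest decreases included a lipase, a flavin monooxygenase and an alcohol dehydrogenase beside genes of sterol synthesis. Lipg, the endothelial lipase, had 0.856 and 0.471 CPM in EV-Cre and 17.6 and 27.4 in EV-GFP, and was 32.9-fold lower (log2 fold change −5.04, standard error 0.42, adjusted p = 1.44e-06). The flavin monooxygenase Fmo1 had 1.53 and 1.13 CPM against 21.8 and 18.3 (−3.90), and the kinase Stk32b had 0.901 and 0.659 against 13.7 and 9.22 (−3.86). Anpep (aminopeptidase N) had 2.97 and 3.63 CPM against 44.4 and 45.9 (−3.79). All 4 genes were reduced to a small part of their control level in both pairs, and no overlap of the groups was a condition for naming them. The alcohol dehydrogenase Adh1 fell by 3.50 on the log2 scale. Also among the largest decreases were Fdps, Insig1, Mvd, Nsdhl and Cyp51, of which Insig1 holds back the processing of SREBP and the others make sterols.

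Among abundant genes, Fbln2, Lox, Ptx3, Thbs1, Csf1, H2-K1, Lgals3bp and Amotl2 rose and C3, Spp1, Scd2, Pdgfra, Sepp1, Col6a1, Igfbp4 and Tgm2 fell. The pattern recognition protein Ptx3 had 2410 and 5130 CPM in EV-Cre and 667 and 820 in EV-GFP (2.25, adjusted p = 0.00143). The PDGF receptor Pdgfra, itself a fibroblast marker, had 802 and 1060 CPM against 1710 and 2530 (−1.17, adjusted p = 2.93e-06). Complement C3 had 3070 and 4560 CPM against 8030 and 8220 (−1.14, adjusted p = 0.0248), and it lost the adjusted p without EV-Cre 1, without EV-Cre 2 and without EV-GFP 1. Igfbp4, which binds insulin-like growth factors, had 442 and 522 CPM against 1670 and 2110 (−1.96, adjusted p = 0.000349).

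**Figure D2:**
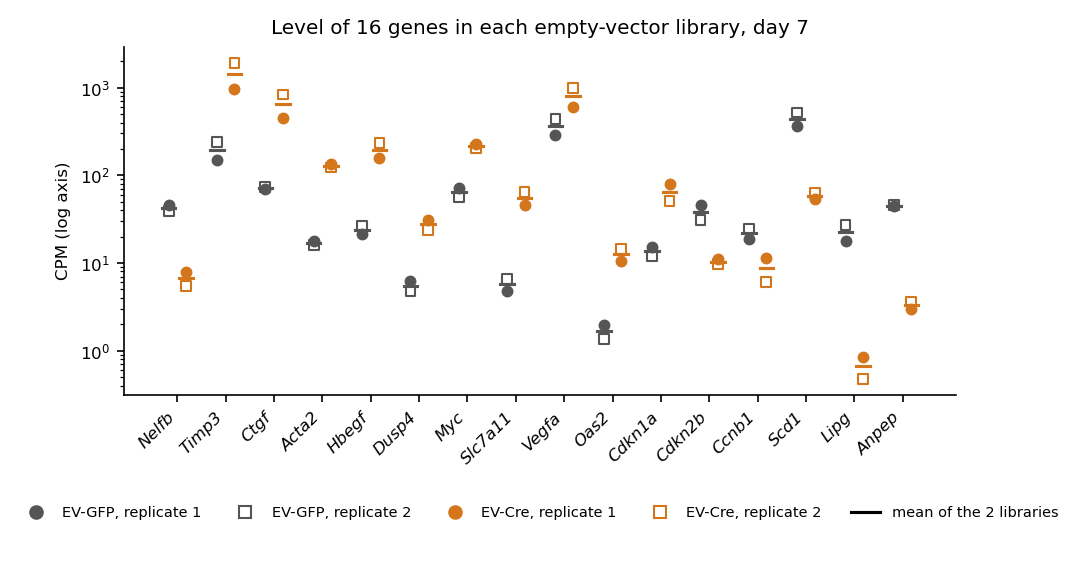
CPM (log axis) of 16 genes in each of the 4 empty-vector libraries, with grey for EV-GFP and orange for EV-Cre, circles for replicate 1, squares for replicate 2 and bars for the mean of the 2. The groups do not overlap for any gene shown, from Lipg (0.471 to 27.4 CPM) to Timp3 (149 to 1920 CPM). No overlap was a condition for naming the largest changes.

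Genes of the contractile cytoskeleton rose with Ad-Cre. They are known targets of serum response factor (SRF), which with its partner MKL1 answers to the state of actin and binds CArG boxes in their promoters. Of 20 genes of this list, 14 rose and 2 fell, with a median log2 fold change of 0.57 (0.001 over all genes), and 7 were called higher and 1 lower. The median was 0.875 without EV-GFP 1 and 0.424 without EV-GFP 2. Acta2, the smooth-muscle actin of myofibroblasts, lies on chromosome 19 from 34241090 to 34255590 and had 134 and 123 CPM in EV-Cre and 17.8 and 15.9 in EV-GFP (log2 fold change 2.93, standard error 0.21, adjusted p = 5.76e-07). Calponin Cnn1 had 11.0 and 7.53 CPM against 1.97 and 1.85 (2.27), and transgelin (Tagln) had 147 and 132 against 35.2 and 24.6 (2.23). In all 3 the EV-Cre 1 library was the highest, and the groups did not overlap. The light chain Myl9 rose by 1.51 and vinculin (Vcl), which ties actin to adhesions, by 1.03, the latter not past the adjusted p without EV-GFP 2. Beta-actin (Actb) had 1850 and 1360 CPM against 1280 and 979 (0.51, adjusted p = 0.002), with EV-Cre 2 close to EV-GFP 1. Mylk, the kinase of the myosin light chain, went the other way, with 20.3 and 27.6 CPM against 102 and 109 (−2.16, adjusted p = 9.38e-06), and so did Mkl1 (−0.51). Without the block, 7 of the 20 rose and 2 fell.

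Promoter windows from RefSeq (GRCm38.p6, 250 bases before to 50 after the start) were at hand for 10630 of the 13805 tested genes, or 77.0%. A CArG box, searched on both strands, was found in 143 of these windows (1.35%) and in 5 of the 17 windows of the contractile list (29.4%). Of the 5, Srf, Vcl, Myl9 and Cnn2 rose and the cytoplasmic actin Actg1 did not pass the test (0.11, adjusted p = 0.556). A stretch of 80 bases of each is shown 5′ to 3′ with the CArG boxes in capitals. The lists with promoter shares here hold known targets. Their shares above those of all windows are therefore a description and no result of the comparison. A match describes the sequence and is not evidence of binding.
Srf, chr17:46556183-46556262, minus strand: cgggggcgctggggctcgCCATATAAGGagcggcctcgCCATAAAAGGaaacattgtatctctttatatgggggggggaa
Vcl, chr14:20929148-20929227, plus strand: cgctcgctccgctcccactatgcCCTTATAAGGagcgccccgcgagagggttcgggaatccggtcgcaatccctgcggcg
Myl9, chr2:156775264-156775343, plus strand: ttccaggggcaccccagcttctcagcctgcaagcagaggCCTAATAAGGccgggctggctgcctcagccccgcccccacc
Cnn2, chr10:79988500-79988579, plus strand: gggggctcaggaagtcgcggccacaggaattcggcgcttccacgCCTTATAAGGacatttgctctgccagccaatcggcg
Actg1, chr11:120348546-120348625, minus strand: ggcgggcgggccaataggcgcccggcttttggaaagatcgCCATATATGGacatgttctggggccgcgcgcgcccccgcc

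Srf holds 2 boxes and the other 4 hold 1 each. Srf itself had 105 and 83.1 CPM in EV-Cre and 75.8 and 46.7 in EV-GFP (0.63, adjusted p = 0.0353) and kept the adjusted p only without EV-GFP 1 among the 4 fits with 1 library left out, and Cnn2 had 363 and 276 against 268 and 188 (0.49, adjusted p = 0.0017).

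YAP and TAZ are coactivators that bind TEAD factors when cells spread or stretch. Of 28 of their factors and targets, 16 rose and 5 fell, with 8 called higher and none lower, and the median log2 fold change was 0.32. Ctgf, a matricellular protein on chromosome 10, had 452 and 834 CPM in EV-Cre and 70.1 and 73.5 in EV-GFP (3.10, standard error 0.34, adjusted p = 3.75e-05). Its relative Cyr61 had 837 and 1790 CPM against 239 and 317 (2.15), and tissue factor (F3) had 421 and 670 against 160 and 187 (1.61). Each of these was higher in EV-Cre 2 than in EV-Cre 1, and both were above EV-GFP. Amotl2 (1.21) and the kinase Lats2 (0.96), which hold YAP back, were among the genes that rose, as was Ajuba (1.04), a LIM protein that binds LATS kinases. RNA of Yap1 was not detectably changed (303 and 233 against 282 and 207 CPM, 0.14, adjusted p = 0.238), and Wwtr1, which encodes TAZ, had 250 and 162 against 177 and 116 (0.49, adjusted p = 0.00131). Without the block, 11 rose and 1 fell, and with 1 library left out 2 (EV-Cre 2) or 3 (any of the other 3) fell.

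Genes that respond early to growth factors were more often higher than lower. Of 27 immediate early genes, 17 rose and 2 fell, with 11 called higher, none lower and a median log2 fold change of 0.67. The AP-1 subunits were unequal. Fosl1 had 12.9 and 7.44 CPM in EV-Cre and 1.77 and 1.66 in EV-GFP (2.54, adjusted p = 6.99e-07) and Fosl2 had 626 and 608 against 421 and 401 (0.59, adjusted p = 4.39e-05). Fos had 32.8 and 27.0 CPM against 48.8 and 10.8, so that its groups overlapped (0.10, adjusted p = 0.935), and Jun had 133 and 107 against 132 and 95.8 (0.08, adjusted p = 0.657). Both Fos and Jun changed sign without EV-GFP 2. Myc, a driver of growth, had 228 and 204 CPM against 72.1 and 57.1 (1.74, standard error 0.10, adjusted p = 1.84e-09), and the basic leucine zipper factor Maff had 85.6 and 66.0 against 15.6 and 12.7 (2.42). Klf4 rose by 1.52, Ier3 by 1.23 and Ier5 by 1.43 on the log2 scale. Without the block, 12 of the 27 rose and none fell, and no member fell without EV-Cre 1, without EV-Cre 2 or without EV-GFP 1.

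The list of ERK feedback holds 7 phosphatases and 6 Sprouty and Spred proteins that inhibit the ERK pathway, and 3 ETS factors that it induces. Of these 16, 13 rose, none fell and 8 were called higher, and the median log2 fold change was 0.96. By role, 5 of the phosphatases, 6 of the Sprouty and Spred genes and 2 of the ETS factors rose. The phosphatase Dusp4 had 31.2 and 24.0 CPM in EV-Cre and 6.19 and 4.78 in EV-GFP (2.33, standard error 0.19, adjusted p = 5.52e-08), and Dusp1 had 120 and 108 against 48.5 and 35.0 (1.45). Among the Sprouty and Spred inhibitors, Spred3 had 50.8 and 65.5 CPM against 24.0 and 32.1 (1.05) and Spry4 had 6.67 and 5.98 against 2.26 and 1.51 (1.74). The ETS factors Etv4 and Etv5 rose by 1.98 and 1.92. Dusp7 did not pass the test (−0.03, adjusted p = 0.851). Without the block, 8 of the 16 rose. The paper reports by Western blotting that phosphorylated MEK and ERK were reduced in MEFs after Cre deletion of Nelfb. RNA of this list does not measure phosphorylation, and how the 2 relate was not tested. The kinases themselves showed smaller differences. For the signaling molecules it blotted, the paper states that NELFB depletion did not affect mRNA levels, which it shows as read profiles. Of 30 genes of the PI3K-AKT and RAF-MEK-ERK pathways, 8 rose and 5 fell, none was called, and the median was 0.02, with Map2k1, which encodes MEK1, at 203 and 151 CPM against 104 and 75.8 (0.98, adjusted p = 7.34e-07). Without the block, 2 of these 30 rose and 1 fell, 5 rose without EV-Cre 2 or without EV-GFP 2, and 3 fell without EV-GFP 1.

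Growth factors and their receptors split. Of 29, 13 rose and 8 fell (5 fell without EV-GFP 2, and 7 rose and 1 fell without the block). Epiregulin (Ereg) had 127 and 156 CPM in EV-Cre and 22.7 and 31.8 in EV-GFP (2.39, standard error 0.14, adjusted p = 5.66e-09), and macrophage colony-stimulating factor (Csf1) had 1080 and 2070 against 363 and 552 (1.74). With Hbegf, these were ligands that rose. The insulin-like growth factor Igf1 had 1.44 and 1.04 CPM against 11.0 and 11.2 (−3.15, adjusted p = 7.36e-07), and the EGF receptor Egfr had 317 and 448 against 455 and 640 (−0.52, adjusted p = 0.00282).

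Genes of amino acid supply, which ATF4 controls in the integrated stress response, were higher. Of 31, 19 rose and 3 fell, with 10 called higher, none lower and a median log2 fold change of 0.68. Slc7a11, the cystine transporter that feeds glutathione synthesis, had 46.1 and 63.9 CPM in EV-Cre and 4.77 and 6.63 in EV-GFP (3.28, standard error 0.31, adjusted p = 5.09e-06). Trib3, an inhibitory pseudokinase, had 36.3 and 46.9 CPM against 11.8 and 7.56 (2.12), and the stress factor Atf3 had 37.8 and 22.5 against 7.62 and 5.95 (2.12). Slc7a5, which carries large neutral amino acids, had 262 and 501 CPM against 72.9 and 113 (2.01), with its partner Slc3a2 at 341 and 588 against 161 and 225 (1.24). Each of the 5 was above EV-GFP in both libraries. Asparagine synthetase (Asns) rose by 1.05, and the glutamine carriers Slc38a2 and Slc1a5 fell by 0.97 and 0.78. Atf4 RNA did not pass the test (366 and 249 against 308 and 219 CPM, 0.22, adjusted p = 0.0935), which says nothing of its protein. Without the block, 13 of the 31 rose and none fell.

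A C/EBP-ATF response element, TGATGNAAN on either strand, was found in 229 of the 10630 windows (2.15%) and in 8 of the 26 windows of this list (30.8%). Of these 8, 6 rose, namely Slc7a11, Trib3, Atf3, Asns, Chac1 and Slc1a4, and Pycr1 and Nupr1 did not pass the test. The stretches of the 6 are shown with the element in capitals, in the same way as above.
Slc7a11, chr3:50443624-50443703, minus strand: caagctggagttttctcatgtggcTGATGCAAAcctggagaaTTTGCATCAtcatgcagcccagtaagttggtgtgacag
Trib3, chr2:152344021-152344100, minus strand: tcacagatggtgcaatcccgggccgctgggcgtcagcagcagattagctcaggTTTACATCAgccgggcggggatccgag
Atf3, chr1:191183394-191183473, minus strand: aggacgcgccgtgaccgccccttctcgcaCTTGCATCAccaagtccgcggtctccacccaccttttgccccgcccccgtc
Asns, chr6:7693190-7693269, minus strand: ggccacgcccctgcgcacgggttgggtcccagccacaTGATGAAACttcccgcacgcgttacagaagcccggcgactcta
Chac1, chr2:119351012-119351091, plus strand: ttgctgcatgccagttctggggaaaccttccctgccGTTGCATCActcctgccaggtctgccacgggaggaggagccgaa
Slc1a4, chr11:20332674-20332753, minus strand: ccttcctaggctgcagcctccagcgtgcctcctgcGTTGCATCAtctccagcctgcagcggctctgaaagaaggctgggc

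Slc7a11 holds 2 elements in opposite directions and the other 5 hold 1 each. Chac1, which breaks down glutathione, had 32.4 and 23.3 CPM in EV-Cre and 18.3 and 9.80 in EV-GFP (1.01, adjusted p = 4.48e-05), and Slc1a4, a carrier of alanine and serine, had 131 and 242 against 85.9 and 127 (0.77, adjusted p = 7.01e-05).

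Antioxidant genes of the NRF2 type shared Slc7a11 and Chac1 with that list and rose beside it. Of 29, 17 rose and 1 fell, with 9 called higher and a median of 0.45. Gsta4 had 65.3 and 42.5 CPM in EV-Cre and 8.11 and 7.85 in EV-GFP. Heme oxygenase 1 (Hmox1) had 718 and 458 CPM against 197 and 139 (1.80, standard error 0.19, adjusted p = 8.08e-06), and thioredoxin reductase 1 (Txnrd1) had 457 and 373 against 185 and 148 (1.32). In these 3 the replicate 1 library was the higher of each group, and the groups stayed apart. Nfe2l2, which encodes NRF2, had 279 and 211 CPM against 238 and 203 (0.14, adjusted p = 0.138). The antioxidant response element TGACNNNGC was found on either strand in 8 of the 24 windows of this list (33.3%), 4 of them of genes that rose, and in 1565 of all 10630 (14.7%). Without the block, 11 of the 29 rose and 1 fell.

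Genes of glycolysis and targets of the hypoxia-inducible factors (HIF) were also more often higher than lower, and the sample labels do not give the oxygen level. Of 34 genes, 24 rose and 4 fell, 9 were called higher and none lower, and the median log2 fold change was 0.68. The glucose transporter Slc2a1 had 272 and 436 CPM in EV-Cre and 64.9 and 110 in EV-GFP (2.03, standard error 0.18, adjusted p = 1.84e-06). Ero1l, an oxidase of the endoplasmic reticulum, had 214 and 383 CPM against 36.1 and 58.7 (2.64), and the vascular growth factor Vegfa had 607 and 987 against 290 and 436 (1.12). Egln1, a prolyl hydroxylase that marks HIF for destruction, had 222 and 193 CPM against 94.8 and 62.8 (1.42). In each of these genes both EV-Cre libraries were above both EV-GFP libraries. Most glycolytic enzymes rose by less, such as Hk2 (0.72), Ldha (0.74) and Tpi1 (0.69), whereas Eno2 (−0.88) and Pfkm (−0.73) fell. Of the factors, Arnt, the partner of HIF, had 92.0 and 81.6 CPM against 149 and 132 (−0.70, adjusted p = 6.43e-07). The short sequence ACGTG, the core of a HIF site, was found on either strand in 16 of the 29 windows of this list (55.2%) and in 2676 of all 10630 (25.2%). The same letters are the core of the E-box CACGTG that MYC and clock factors bind. Without the block, 12 of the 34 rose and 2 fell.

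Genes of the interferon response rose. Interferons are released when cells sense viral nucleic acid, and both groups had received an adenovirus. Of 42 interferon-stimulated genes, 33 rose and 1 fell, with 17 called higher, none lower and a median log2 fold change of 0.84. Oas2 had 10.5 and 14.4 CPM in EV-Cre and 1.97 and 1.37 in EV-GFP. The GTPase Irgm1 had 139 and 111 CPM against 77.5 and 52.6 (0.96, standard error 0.09, adjusted p = 3.24e-07), the restriction factor Bst2 had 324 and 491 against 165 and 159 (1.31), and Xaf1 had 24.2 and 21.7 against 12.7 and 7.61 (1.20). In EV-GFP, Irgm1 and Xaf1 were lower in replicate 2, and the groups did not overlap. Irf1 was the member that fell (37.6 and 32.0 against 48.4 and 42.9 CPM, −0.39, adjusted p = 0.00433). Several members belong to families of near-identical genes, such as Oas and Ifit, whose reads a mapping filter can drop unevenly. Without the block, 14 of the 42 rose.

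Of 16 genes of MHC class I and antigen processing, 10 were higher and 3 lower, with a median of 0.87. Of the 11 presentation genes 8 rose and none fell, whereas of the 5 immunoproteasome genes 2 rose and 3 fell. H2-D1 had 764 and 1240 CPM in EV-Cre and 163 and 197 in EV-GFP (2.43, standard error 0.35, adjusted p = 0.000288), H2-K1 had 1050 and 2030 against 374 and 413 (1.89), and the subunit Psmb9 had 6.53 and 5.89 against 2.02 and 1.32 (1.90). The 3 that fell were Psmb10 (−0.39), Psme1 (−0.36) and Psme2 (−0.72), of which Psmb10 and Psme1 lost the adjusted p without EV-Cre 1 or EV-GFP 1, and Psmb10 also with the 4 EV libraries alone (0.0549). H2 genes are near-identical copies, so their single values are uncertain. Without EV-GFP 2, 6 of the 16 rose, without EV-Cre 1 or EV-GFP 1 the number that fell was 1, and without the block 6 rose and 1 fell. Of 39 chemokine, cytokine and acute phase genes, 16 rose and 8 fell, 12 and 2 of them called (9 rose and 3 fell without the block, and 5 fell without EV-GFP 1). Interleukin 6 (Il6) had 180 and 285 CPM against 51.7 and 51.7 (2.14, standard error 0.23, adjusted p = 2.29e-05), and Tnfaip3, a brake on NF-kB, had 201 and 180 against 62.4 and 43.3 (1.86). The NF-kB subunits Nfkb1 (−0.48), Nfkb2 (−0.51) and Relb (−0.70) fell, and the most abundant chemokine, Cxcl12, did not pass the test (9010 and 14300 against 7520 and 10300 CPM, 0.36, adjusted p = 0.185).

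Cell cycle genes did not move as 1 block. The inhibitor Cdkn1a, which encodes p21, had 78.8 and 50.7 CPM in EV-Cre and 15.3 and 12.1 in EV-GFP and was 4.68-fold higher (log2 fold change 2.23, standard error 0.26, adjusted p = 2.59e-05). Other CDK inhibitors fell. Cdkn2a had 19.7 and 16.3 CPM against 64.5 and 50.5 (−1.67, adjusted p = 4.53e-08), Cdkn2b had 11.0 and 9.79 against 45.3 and 31.0 (−1.86, adjusted p = 3.62e-08), and Cdkn2c had 73.7 and 45.5 against 166 and 124 (−1.30, adjusted p = 3.64e-07). Cdkn1c fell by 1.91 and Cdkn1b by 0.47. All 5 of these stood apart from EV-GFP in both pairs, opposite in direction to Cdkn1a. Of the 23 G1 genes in all, 5 rose and 11 fell (2 and 7 without EV-Cre 2, 3 and 9 without EV-Cre 1, 2 and 10 without EV-GFP 1, 4 and 7 without EV-GFP 2, and 1 and 6 without the block), among them Cdk4 with 339 and 259 CPM against 457 and 394 (−0.52, adjusted p = 0.000745) and Ccnd1 with 130 and 92.0 against 80.4 and 65.4 (0.60, adjusted p = 0.00036).

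Genes of G2 and mitosis had lower values in both pairs, by unequal amounts and with few calls. All 31 members had a negative log2 fold change in the fit, with a median of −0.84, but 7 passed the adjusted p, and the median was −0.27 in the first pair and −1.46 in the second, each of 1 library per group. Without EV-Cre 2 or EV-GFP 2 the fitted median was −0.53 or −0.49. Cyclin B1 (Ccnb1) had 11.5 and 6.03 CPM in EV-Cre and 18.9 and 24.4 in EV-GFP (−1.34, standard error 0.40, adjusted p = 0.021), and the spindle checkpoint kinase Bub1b had 40.9 and 25.7 against 66.2 and 97.4 (−1.32, adjusted p = 0.0156). Mki67, the proliferation marker and most abundant member, had 195 and 182 CPM against 227 and 502 and did not pass the test (−0.86, adjusted p = 0.0997). Ccnb1 and Bub1b lost the adjusted p without EV-Cre 2, without EV-GFP 2 and with the 4 EV libraries alone. The number of members that fell depended on the fit. It was 0 without EV-Cre 2, 0 without EV-GFP 2, 11 without EV-GFP 1, 3 without the block, 4 without the filter on low counts, 1 with the 4 EV libraries alone and 16 by DESeq2. Of 35 genes of DNA replication, none rose and 3 fell, with medians of 0.22 and −0.46 in the 2 pairs (7 fell by DESeq2, 5 with the 4 EV libraries alone, 1 without EV-GFP 2 and 1 without the block, and without EV-Cre 2 there was 1 that rose and 2 fell). The letters TTTGAA, the CHR element of mitotic promoters, were found on either strand in 19 of the 25 windows of the mitotic list (76.0%) and in 1248 of all 10630 (11.7%).

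Targets of Trp53 were mixed. Of 28, 14 rose and 6 fell, with 6 called higher and 3 lower and a median of 0.24 (3 fell without EV-GFP 2, and 9 rose and 4 fell without the block). Beside Cdkn1a, the polo-like kinase Plk2 had 273 and 237 CPM in EV-Cre and 61.2 and 52.5 in EV-GFP (2.16, standard error 0.10, adjusted p = 1.34e-10), and the proapoptotic Pmaip1 had 13.3 and 6.73 against 4.62 and 2.29 (1.53). Other classical targets fell. Sesn1 had 26.9 and 21.2 CPM against 84.6 and 69.0 (−1.67, adjusted p = 7.03e-09), Bbc3, which encodes PUMA, had 4.19 and 4.38 against 9.10 and 9.22 (−1.10, adjusted p = 0.000253), and Perp fell by 1.18. The groups did not overlap for these 3, and Mdm2, the ubiquitin ligase that limits Trp53, had 61.4 and 56.9 CPM against 46.2 and 48.6 (0.32, adjusted p = 0.00746), which was lost without EV-Cre 1 or without EV-GFP 1.

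Matrix genes changed in both directions, so that the makeup of the matrix RNA shifted while the list had a median of 0.06. Of 45, 15 rose and 15 fell, 7 and 8 of them called. Thrombospondin 1 (Thbs1) had 1180 and 2570 CPM in EV-Cre and 328 and 334 in EV-GFP (2.41, standard error 0.32, adjusted p = 9.57e-05), and Col12a1 had 388 and 906 against 150 and 248 (1.64). Of 9 crosslinking genes in this list, 6 rose, 0 fell and 3 did not pass the test. Plod1 (1.48), P4ha2 (1.21) and Lox (1.05), which modify collagen, rose, the last with 3200 and 5330 CPM against 1670 and 2390. Collagens and elastic fiber genes were among those that fell. Fibrillin 2 (Fbn2) had 129 and 212 CPM against 376 and 694 (−1.63, standard error 0.12, adjusted p = 2.92e-08), Col11a1 had 52.1 and 71.3 against 113 and 208 (−1.33), elastin (Eln) fell by 2.29, and Col6a1, Col6a2 and Col6a3 fell by 1.01, 1.01 and 0.85. Col1a1, the most abundant collagen, had 3150 and 4950 CPM against 5650 and 8040 (−0.77, adjusted p = 0.00471), with EV-Cre 2 below EV-GFP 1, and lost the adjusted p without EV-GFP 1. Without the block, 1 of the 45 rose and 2 fell.

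Adhesion genes and membrane peptidases held large decreases. Itga6, an integrin that binds laminin, had 31.4 and 32.9 CPM in EV-Cre and 117 and 155 in EV-GFP (−2.07, standard error 0.12, adjusted p = 1.84e-09), and Vcam1 had 158 and 191 against 520 and 675 (−1.77), whereas Itga5, which binds fibronectin, had 339 and 537 against 169 and 273 (0.99, adjusted p = 9.56e-06) and Mcam had 61.2 and 91.7 against 11.3 and 26.8 (2.06). Of 29 integrins and adhesion genes, 7 rose and 10 fell (4 rose without EV-Cre 1, without EV-Cre 2 or without EV-GFP 1, and 1 rose and 4 fell without the block). Integrins themselves had 4 members higher and 3 lower of 15, and cadherins none higher and 4 lower of 6. Of 25 membrane peptidases, lipases and genes of drug metabolism, 7 rose and 9 fell, with a median of 0.06 (−0.10 without EV-Cre 1, −0.19 without EV-Cre 2 and −0.05 without EV-GFP 1), and 2 rose and 6 fell without the block. Within this list, none of 7 membrane peptidases rose and 4 fell, whereas of 13 genes of drug metabolism 6 rose and 3 fell, with a median of 0.49. Of the latter, Cyp1b1, a cytochrome P450, had 721 and 1180 CPM in EV-Cre and 432 and 697 in EV-GFP (0.75, adjusted p = 0.000661), opposite in direction to Fmo1. Enpep had 259 and 324 CPM against 687 and 990 (−1.51, adjusted p = 5.52e-08) and Dpp4 had 1.04 and 1.70 against 4.38 and 6.05 (−1.93), next to the fall of Anpep. The Wnt modulators Rspo3 (−1.03) and Dkk3 (−1.31) fell as well, and the median over 32 Wnt genes was −0.20 (−0.39 without EV-Cre 1), with 5 higher and 11 lower (2 and 4 without EV-Cre 2, 3 and 7 without either EV-GFP library, 3 and 9 without EV-Cre 1, and none and 5 without the block).

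Lipid genes beyond sterol synthesis fell with it. SREBP factors switch on fatty acid synthesis and the uptake of cholesterol when sterols in the endoplasmic reticulum are low. Of 24 genes of fatty acid synthesis, none rose and 17 fell, 9 of them called, and the median log2 fold change was −0.89. Scd2, a desaturase, had 441 and 658 CPM in EV-Cre and 3020 and 4480 in EV-GFP (−2.77, standard error 0.13, adjusted p = 1.34e-10), and Fasn, the synthase, had 282 and 301 against 726 and 737 (−1.33, adjusted p = 2.22e-08). The elongase Elovl6 fell by 2.39 and the desaturases Scd1, Fads1 and Fads2 by 2.91, 1.97 and 1.81. Of 20 genes of cholesterol uptake and efflux, 10 fell and 2 rose (6 fell without EV-Cre 1, at most 1 rose without any 1 library, and 6 fell and none rose without the block). Srebf2 RNA fell from 483 and 703 to 131 and 151 CPM (−2.05), and Srebf1 RNA did not pass the test (−0.28, adjusted p = 0.0717). Without the block, 12 of the 24 genes of fatty acid synthesis fell.

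Lists of the translation machinery differed in their counts, and the difference between lists was not tested. Of 29 genes of ribosome biogenesis and MYC, 21 rose and 2 fell, with a median of 0.55, led by Nop56 of the snoRNA particles with 104 and 144 CPM in EV-Cre and 48.5 and 49.8 in EV-GFP (1.32, adjusted p = 7.25e-08). Of 20 tRNA synthetases, 13 rose and 1 fell (median 0.30). Of 46 cytosolic ribosomal proteins, 6 rose and 14 fell (median −0.12), with 8 that fell without EV-Cre 1 or EV-GFP 1, 3 that rose without EV-Cre 2 or EV-GFP 1 and 1 that rose without EV-GFP 2. Heat shock genes and those of the endoplasmic reticulum also differed. Of 19 heat shock genes, 13 rose and 1 fell (7 rose without EV-Cre 1 and 6 without EV-GFP 1), with Hsph1 at 184 and 193 CPM against 80.3 and 81.8 (1.22, adjusted p = 1.22e-07). Of 23 genes of the unfolded protein response, 3 rose and 7 fell (3 fell without either EV-Cre library and 2 without EV-GFP 2), with Xbp1 at 119 and 153 CPM against 174 and 264 (−0.67, adjusted p = 2.62e-05). Of 40 lysosome and autophagy genes, 2 rose and 14 fell, none of them called (median −0.24). Without the block, these 6 lists had 12, 5, 1, 4, 0 and 0 members that rose and 1, 0, 0, 0, 0 and 1 that fell.

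Clustered histone genes, whose RNA usually has no poly(A) tail, were more often higher than lower. Of 30 genes listed, 23 were tested. Genes with few reads can pass the filter through 1 group, so their shared direction is a description only. All 23 had a positive log2 fold change, 14 passed the adjusted p, 11 were called higher, and the median was 1.48. The medians of the 2 pairs taken singly were 1.25 and 1.23, but single-pair values are damped at low counts and not on the scale of the fit. With the 4 EV libraries alone, 16 were tested and 13 rose. Hist1h4h had 6.17 and 4.43 CPM in EV-Cre and 0.787 and 0.634 in EV-GFP (2.89, standard error 0.25, adjusted p = 1.12e-07), and Hist1h1c, the most abundant, had 87.8 and 55.2 against 49.6 and 23.5 (1.01, adjusted p = 0.00024). In WT, the median of the same 23 genes was 0.90. Histone genes are near copies of each other, so single members are uncertain. Without the block, 7 of the 23 rose. Of 17 clock genes, 9 rose and 3 fell, with the repressor Nr1d1 at 126 and 112 CPM against 67.9 and 49.5 (1.03, adjusted p = 1.25e-06) and Dbp at 11.1 and 12.1 against 22.6 and 17.2 (−0.75, adjusted p = 0.00437), which was lost without EV-Cre 1. Without the block, 6 of the 17 rose and none fell.

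**Figure D3:**
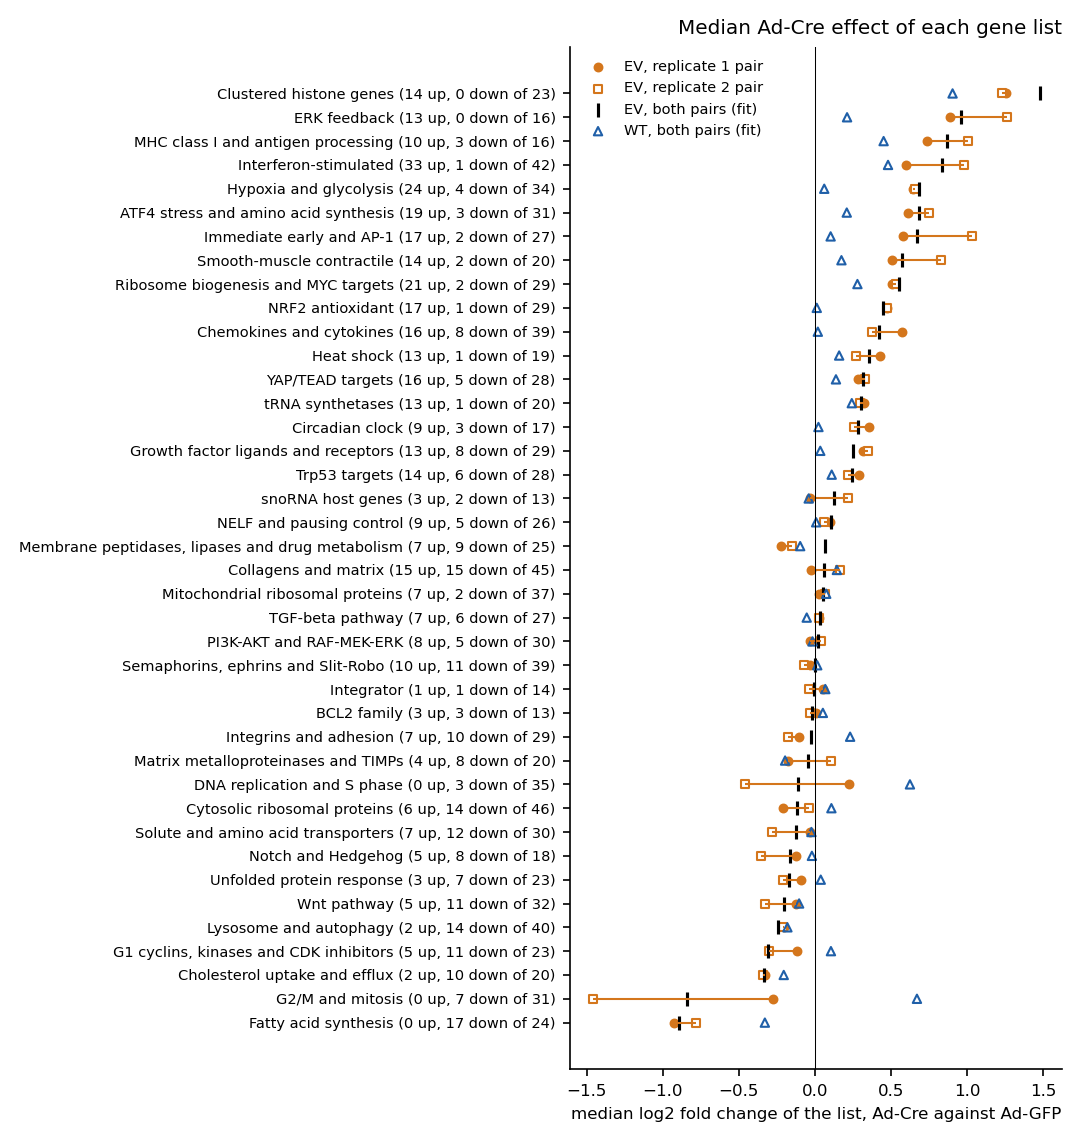
Median log2 fold change of each of 40 gene lists (x axis), with orange circles for the replicate 1 pair and open squares for the replicate 2 pair of EV, black ticks for the fit over both pairs and blue triangles for WT. Changes in single pairs are damped at low counts, unlike those of the fit. Numbers behind the names are the members that rose and fell at an adjusted p under 0.05 of those tested. The mitotic list is the one whose 2 EV pairs lie farthest apart (−0.27 and −1.46), with WT on the other side of 0 (0.67).

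Ad-Cre also reached cells that carried ectopic wild-type NELFB, and the effect there was smaller. In WT, 775 genes passed the adjusted p (5.61%) and 120 were called (0.869%), 83 of these called in EV too and in the same direction. The difference between the effect in EV and in WT, tested as an interaction on libraries that the 2 comparisons do not share, passed the adjusted p for 2388 genes (17.3%). Of the 1344 genes called in EV, 709 passed it, and 1679 of the genes that passed were not called in EV. The count of 2388 depended on the fit. It was 94 without the block, 1171 without EV-Cre 2, 1188 without EV-GFP 2, 1332 without WT-Cre 2 and 1272 without WT-GFP 1. For Nelfb, the WT libraries had 75.9 and 60.5 CPM with Ad-Cre and 97.5 and 82.8 with Ad-GFP, where reads of the ectopic copy and of the endogenous gene count alike.

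The smallest interaction p-values belonged mostly to lipid genes. Mvd, an enzyme of the mevalonate pathway, had 68.0 and 54.2 CPM in WT-Cre and 109 and 98.5 in WT-GFP, and its effect in EV was lower by 2.76 on the log2 scale than in WT (standard error 0.20, adjusted p = 6.45e-07). Scd1, Scd2, Dhcr7, Nsdhl, Tm7sf2 and Fads1 also fell more in EV. Plk2 had 71.4 and 68.2 CPM in WT-Cre against 51.2 and 48.4, with an effect larger by 1.68 in EV (adjusted p = 1.52e-06), and Fam162a, a mitochondrial protein induced by HIF, had 164 and 137 CPM in EV-Cre against 49.1 and 39.7 and 65.3 and 51.9 in WT-Cre against 49.1 and 39.0 (difference 1.35, adjusted p = 1.23e-06).

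Some of the lists are given here with their medians in WT and their members past the interaction test. Of all genes, 17.3% passed that test, and no test compared lists with each other. For hypoxia and glycolysis, the median in WT was 0.06, and 20 of 34 members passed the interaction test, and for NRF2 the median was 0.01, with 14 of 29. For the interferon list, the median in WT was 0.48 and 7 of 42 members passed it, and for MHC class I it was 0.45, with 1 of 16. For the contractile list the median in WT was 0.17, and 3 of 20 members passed. Without the block, these 5 lists had 1, 4, 0, 0 and 0 members past the interaction test. For hypoxia the count was 12 without WT-Cre 2, for the interferon list it was 1 without EV-Cre 2, EV-GFP 2 or WT-Cre 2, 3 without WT-Cre 1, 0 without WT-GFP 1 and 11 with the 8 EV and WT libraries alone, and for the contractile list it was 1 without EV-Cre 1, EV-GFP 2, WT-Cre 2 or WT-GFP 1, 6 without WT-GFP 2 or by DESeq2, and 7 with the 8 libraries alone. For MHC class I it was 2 without WT-GFP 2, by DESeq2 or with its size factors, and 4 with the 8 libraries alone. Acta2 had 62.0 and 64.2 CPM in WT-Cre against 19.9 and 17.0 in WT-GFP, so it rose in WT as well (1.77), and the difference of 1.16 from EV had an adjusted p of 0.0197, which was lost without the block and without EV-Cre 1, EV-GFP 2, WT-Cre 2 or WT-GFP 1. For the mitotic list, WT had a median of 0.67, opposite in sign to EV, and 11 of 31 members passed the interaction test. That count was 0 without the block, without the filter on low counts and without EV-Cre 2, EV-GFP 2, WT-Cre 2 or WT-GFP 1, 1 without WT-GFP 2, 3 without WT-Cre 1, 22 with the 8 EV and WT libraries alone and 27 by DESeq2. Ccnb1 had 28.9 and 31.9 CPM in WT-Cre against 19.5 and 19.3 in WT-GFP (interaction adjusted p = 0.0318), and this was lost without the block, without the filter, without EV-Cre 2, without EV-GFP 2 and without any WT library but WT-Cre 1. For clustered histone genes the median in WT was 0.90, and 5 of 23 members passed the interaction test. DNA replication had a median of 0.62 in WT, against 0.22 and −0.46 in the 2 EV pairs, with 9 of 35. The medians in WT were 0.21 for ERK feedback (8 of 16), 0.21 for ATF4 (12 of 31) and −0.33 for fatty acid synthesis (13 of 24). Without the block, these lists had 1, 0, 1, 0 and 4 members past it. DNA replication had 24 with the 8 libraries alone, 18 by DESeq2 and 6 without the filter on low counts. For DNA replication and for ERK feedback, the count was lower without any 1 of the EV and WT libraries but EV-GFP 1. For DNA replication, most of it was lost without EV-Cre 2, EV-GFP 2, WT-Cre 2 or WT-GFP 1. EV and WT populations received the same viruses, and the part of Cre itself in the changes that both share was not tested.

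**Figure D4:**
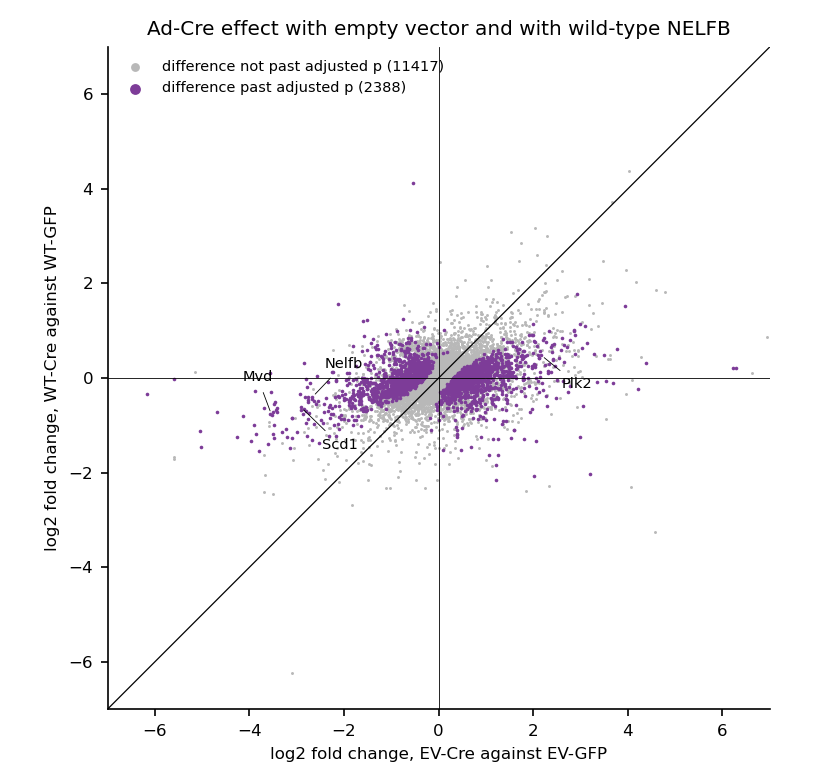
Log2 fold change with Ad-Cre in EV (x axis) and in WT (y axis) for 13805 genes, with the 2388 genes whose difference passed the adjusted p in purple and a line of equal effect. Scd1 (−2.91 in EV, −0.61 in WT) and Plk2 (2.16 and 0.49) lie far from the line of equal effect, closer to 0 in WT.

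The called genes were also described by level, length and position, with the tested genes cut into 4 bins of equal size by each measure. Level comes from the same libraries as the calls, and genes with few reads have noisier fold changes and can pass the filter through 1 group, so the shares by level are a description only. In the bin with the lowest mean CPM, 11.9% were called higher and 8.14% lower, against 3.25% and 3.22% in the bin with the highest. Length was not used by the comparison. In the bin with the shortest genomic span, 7.40% were called higher and 4.12% lower, and in the longest bin 3.98% and 5.85%. The median span was 15356 bases for the genes called higher, 27952 for those called lower and 22947 for all tested genes with a position, and the median of the largest exon number was 6, 9 and 9. Of 459 genes with a single exon, 9.80% were called higher and 2.83% lower, and of 158 lincRNAs 17.1% and 2.53%. Span, exon number and level vary together, and their separate parts were not tested. By chromosome, chromosome 17, which holds the H2 genes, had 7.34% of its genes called higher and 1.47% lower, chromosome 13, which holds most clustered histone genes, 9.32% and 3.23%, and the X chromosome 3.74% and 6.39%.

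**Figure D5:**
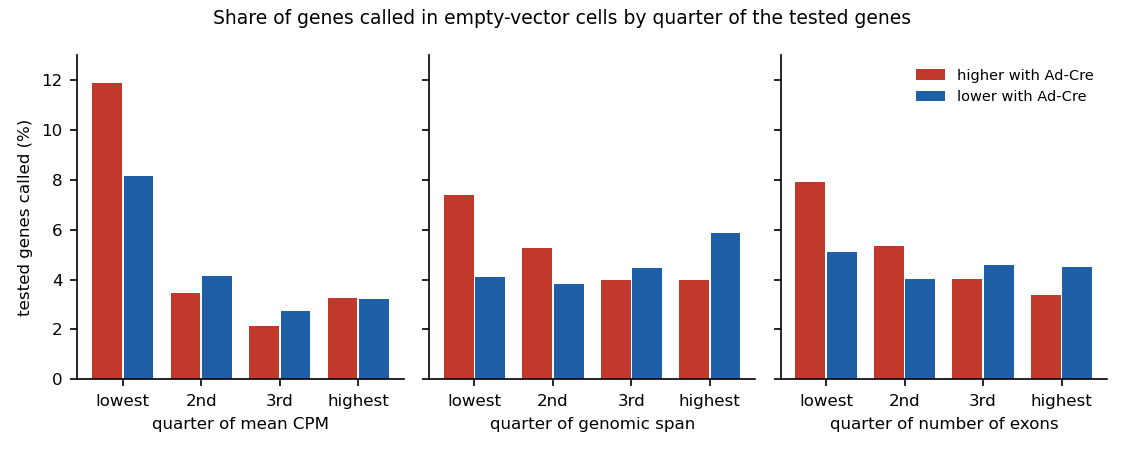
Percent of tested genes called higher (red) and lower (blue) with Ad-Cre in EV, in 4 equal bins of mean CPM, genomic span and largest number of exons in a transcript. The lowest bin of each measure has the highest red bar, with 11.9%, 7.40% and 7.90%.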

How the data were processed

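Poly(A) RNA of the populations was sequenced in single reads of 50 bases from stranded libraries. The authors aligned reads to mm10 with bowtie2, sorted the alignments with SAMtools and skipped those with a mapping quality under 30. They counted reads per gene with HTSeq and deposited the raw counts of 24421 symbols. Bowtie2 does not place reads across exon junctions, and the filter drops reads of near-identical genes. Versions and the strand setting of the counting are not given in the sources used here, so overlapping and antisense genes are uncertain.

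From the counts of the 20 day-7 populations (10 groups of 2), genes were kept by filterByExpr, which left 13805, and edgeR 4.0.16 (R 4.3.3) gave TMM factors, CPM, log2 fold changes and p-values. The quasi-likelihood fit with robust dispersions had 1 mean per group and the replicate number as a block (9 residual degrees of freedom), with Benjamini-Hochberg adjustment over all tested genes. Called genes had an adjusted p under 0.05 and a change of more than 1 on the log2 scale in either direction, and members of lists were counted at the adjusted p alone. The standard error is the log2 fold change divided by the square root of F. Log2 fold changes of single pairs are differences of log CPM with a prior count added. This damps them at low counts, so they can be smaller than the fitted changes. The numbers pair the samples, since deviations of replicate 1 from its group mean correlated over genes at more than 0.1 in 45 of 45 pairs of groups (0.4205 to 0.7302, and 0.5928 between EV-Cre and EV-GFP), and the methods describe 2 independent experiments. With 2 populations per group, p-values measure the spread between these samples only.

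The comparison, the gene lists and the tests were chosen with earlier results of these data known, and no list was tested as a set. Genes were named as Nelfb, Nelfa, Nelfcd, Nelfe, Actb, Fasn and Cdkn1a, as the 12 largest changes in each direction (called, 100 counts or more on average, no overlap of the groups), as the 8 most abundant called genes in each direction, as up to 4 members per list and direction with the smallest p and the most abundant member, and as the 10 smallest interaction p-values. Some of them are not reported here, and other list members were named after their values were seen. Positions came from GENCODE for mm10 (23334 symbols matched, 663 more by RefSeq synonyms), and promoter windows from RefSeq.

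On simulated counts with 200 changed genes for this comparison (13738 genes), edgeR recovered 94% of those changed by 1.5 and 99% of those changed by 3 on the log2 scale, with 2 false calls. Changes were planted only in genes above a minimum count, and far fewer genes were changed than were called in the data. The counts were drawn from the fitted model with its replicate block, so the simulation cannot test the block. These values are not error rates of the real calls. Alternatives were no block, DESeq2 1.42.0, DESeq2 size factors in edgeR, no filter, fewer libraries in the fit, each library left out, and a threshold of 0.5 on the log2 fold change. The 15 clone libraries were not analysed here.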

Additional observations from a re-analysis of the deposited data

Results flagged for a closer look

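Each group held 2 libraries, so no library could be set against the spread of its own group. The Ad-Cre effect differed between EV and WT, by the interaction test across all genes, most clearly for the 9 genes given here. On the log2 scale the effect in EV minus that in WT was −2.30 for Scd1, −2.27 for Scd2, −2.76 for Mvd, −1.51 for Dhcr7, −2.80 for Nsdhl, −2.16 for Tm7sf2 and −1.53 for Fads1, and it was 1.35 for Fam162a and 1.68 for Plk2. All 9 kept their direction in each alternative run, and without the replicate block Dhcr7, Fads1 and Fam162a were no longer past the adjusted p. Of the 31 mitotic genes, 11 had an interaction past the adjusted p, with a median log2 fold change of −0.84 in EV and 0.67 in WT. None of the 31 passed it without the block, without the filter or without EV-Cre 2, EV-GFP 2, WT-Cre 2 or WT-GFP 1, and 27 did by DESeq2.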

How the results depend on the processing

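With the threshold of 0.5 in place of 1 on the log2 fold change, 3502 genes were called in EV, 1709 higher and 1793 lower. Without the replicate block, 900 were called, 453 of them higher, 1791 passed the adjusted p alone, 894 of the calls were shared with the blocked fit, and 94 genes passed the interaction with WT. When 1 library was left out, between 1171 (without EV-Cre 2) and 2117 (without WT-Cre 1) genes passed that interaction, and between 1096 and 1378 were called in EV. DESeq2 called 1270 genes, of which 1260 were shared, the 4 EV libraries alone 1225 and the fit without a filter 1345. Of the 167 named genes past the adjusted p, 44 lost it without the block, all in the same direction, namely Actb, C3, Ccnd1, Cdk4, Chac1, Cnn2, Col11a1, Col12a1, Col1a1, Col6a1, Col6a2, Col6a3, Cyp1b1, Dbp, Egfr, Eno2, Fbln2, Hexim1, Hist1h1c, Irf1, Irgm1, Itga5, Lox, Mdm2, Mllt1, P4ha2, Pdgfra, Plod1, Pmaip1, Psmb10, Psme1, Slc1a4, Slc1a5, Slc38a2, Slc3a2, Spp1, Srf, Supt6, Tpi1, Ttn, Vcl, Vegfa, Wwtr1 and Xbp1. No such gene lost it with DESeq2 or its size factors, and C3 and Srf lost it without the filter. Of the 15 named genes that had not passed, Atf4, Cxcl12 and Srebf1 passed with the 4 EV libraries alone, Atf4 without EV-Cre 2 and Pycr1 without EV-GFP 2, and 4 changed sign when a library was left out. With 1 library left out, Dusp7 ranged from −0.10 to 0.05, Actg1 from −0.05 to 0.25, Fos from −0.61 to 1.36 and Jun from −0.05 to 0.23. The cause of these differences was not tested. Recovery of changes under 1.5 on the log2 scale was not simulated.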

Other observations

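Some genes went from near absence to a clear count or the reverse, chosen after their values were seen. With at most 3 reads in both EV-GFP libraries and at least 20 in both EV-Cre libraries there were 4 genes. Sprr3, of the cornified envelope of skin, had 37 and 28 reads in EV-Cre and 1 and 1 in EV-GFP, Smtnl2 had 31 and 22 against 3 and 3, Cox6a2 had 24 and 20 against 3 and 3, and Sprr2j-ps had 27 and 23 against 3 and 2. The reverse held for 3 genes. Col6a5 had 1 and 1 read in EV-Cre and 35 and 34 in EV-GFP, the prolactin receptor Prlr had 2 and 1 against 21 and 27, and the glutamate receptor subunit Grin1 had 0 and 3 against 28 and 30.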
